A study of Mus musculus with 2 samples.

Results

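Penk, Nrgn, Rgs16 and Cd200 were described in the tumor-infiltrating leukocytes (TILs) of distant MC38 tumors after microwave ablation (MWA), with or without blockade of TIGIT. They are 4 of the 32285 genes in the tables and were taken by symbol, with earlier results of the same libraries known. They were selected on their UMI counts (a UMI, or unique molecular identifier, stands for 1 captured RNA molecule) in CD8, CD4, regulatory and NK cells and on how few cells held them, so their levels and the differences between the libraries are given as a description with no test. The cells were CD45+ leukocytes of MC38 mouse colon cancer grown under the skin of both flanks of C57BL/6 mice. In both groups only the right flank tumor was ablated, when it had reached about 300 mm3, and the left flank tumor was taken on day 8. The MWA group received no TIGIT antibody per its label (the study's methods give its ablation arm an isotype control antibody), and the MWA plus TIGIT group received the blocking antibody into the abdominal cavity from day 1, every 3 days and 3 times in all per the labels, where the study's methods give another number of injections. Each group is 1 library prepared with 10x Genomics reagents, and the number of mice behind it is not given in the sources used here.

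A single library stands for each group, so no replicate spread can be given, and the treatment and the library cannot be told apart. Intervals are 95% intervals for counting error alone, exact Poisson for levels, exact binomial for shares of cells and exact conditional for ratios, and they are narrower than the spread between cells because the UMIs of these genes sit in few cells. After filters, 9231 of 10217 barcodes were kept in the MWA library and 9127 of 10190 in the MWA plus TIGIT library, with a median of 5342 and 6297 UMIs per cell. The libraries share 37 barcode sequences, 0.362% and 0.363% of their barcodes. Levels are given as CPM, counts-per-million, which are the UMIs of the gene scaled to all UMIs of the class, and each ratio is the MWA plus TIGIT level over the MWA level.

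Penk encodes proenkephalin, the precursor from which prohormone convertases and carboxypeptidase E release the enkephalins, short opioid peptides that act on opioid receptors. Nrgn encodes neurogranin, a small protein best known from neurons that binds calmodulin when calcium is low and so bears on calmodulin-dependent enzymes such as calcineurin, the phosphatase that activates NFAT in stimulated T cells. Rgs16 encodes a regulator of G protein signalling, which speeds GTP hydrolysis by G protein alpha subunits and shortens the signal of G protein-coupled receptors, chemokine receptors among them. Cd200 encodes a surface glycoprotein of the immunoglobulin superfamily whose inhibitory receptor, CD200R, is found mainly on myeloid cells and some T cells.

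In the GENCODE annotation of GRCm38 all 4 are protein-coding genes on separate chromosomes. Penk (ENSMUSG00000045573) spans chr4:4133531-4138819 on the minus strand, Nrgn (ENSMUSG00000053310) chr9:37544492-37552904 on the minus strand, Rgs16 (ENSMUSG00000026475) chr1:153740349-153745468 on the plus strand and Cd200 (ENSMUSG00000022661) chr16:45382135-45409053 on the minus strand. The 250 bases upstream of the RefSeq start (GRCm38.p6) were matched for 3 of the 4, and are shown because Nrgn, Rgs16 and Cd200 were counted in many of the same CD8 cells. They lie at chr9:37552746-37552995 (minus strand), chr1:153740103-153740352 (plus strand) and chr16:45409054-45409303 (minus strand), and are written 5′ to 3′ along the gene, with every match to a searched motif in capitals.
Nrgn: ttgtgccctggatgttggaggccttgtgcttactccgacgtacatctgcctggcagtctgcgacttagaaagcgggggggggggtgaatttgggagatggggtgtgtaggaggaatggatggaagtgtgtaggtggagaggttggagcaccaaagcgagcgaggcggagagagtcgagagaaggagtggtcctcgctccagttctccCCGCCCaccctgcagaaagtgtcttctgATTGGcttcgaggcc
Rgs16: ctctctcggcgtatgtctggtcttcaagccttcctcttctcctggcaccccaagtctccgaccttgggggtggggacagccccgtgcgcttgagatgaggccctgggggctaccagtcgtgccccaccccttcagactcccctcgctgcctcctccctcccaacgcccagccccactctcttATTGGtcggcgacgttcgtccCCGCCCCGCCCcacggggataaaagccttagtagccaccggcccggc
Cd200: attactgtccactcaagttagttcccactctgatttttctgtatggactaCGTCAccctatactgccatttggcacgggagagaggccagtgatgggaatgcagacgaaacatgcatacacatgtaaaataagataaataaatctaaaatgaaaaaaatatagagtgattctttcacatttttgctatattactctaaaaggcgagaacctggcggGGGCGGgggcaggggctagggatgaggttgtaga
The motifs were searched on both strands as GGGCGG (GC box), CCAAT (the motif bound by NF-Y), TGACG (core of the cAMP response site), TGANTCA (AP-1) and GGAAA (NFAT core). GGGCGG stood once upstream of Nrgn and of Cd200 and in 2 overlapping copies upstream of Rgs16, and 32.7% of all 32851 such windows hold it. CCAAT was found once each for Nrgn and Rgs16 (33.8% of windows) and TGACG once for Cd200 (17.8% of windows). Upstream here refers to the RefSeq start. For Nrgn the part of the window nearest that start, with both of its matches, lies within the GENCODE span given above. The letters of TGANTCA (6.75% of windows) and GGAAA (55.6% of windows) are in none of these 3 windows. A match is a stretch of letters and not a known binding site.

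The cell classes were rebuilt by clustering without the 4 genes among the features, and named from fixed marker lists. All CD8 classes together held 1851 cells in the MWA library and 1991 in the MWA plus TIGIT library, of which 284 and 183 were exhausted-like. The CD4-like class held 907 and 756 cells, the regulatory classes 788 and 669 and the NK-like class 166 and 116. A further cluster of 60 and 58 T cells, which had Il4 and Il13 UMIs, could not be named from the fixed lists and is called the Il4 Il13 cluster after 2 of its leading genes, although few of its cells held them. It was not stable: with the 4 genes among the features its best match held 27.1% of its cells, under the 50% needed to match it, and with doublets kept 77.1% of its cells formed a cluster among the CD8 cells. Exhausted-like cells expressed both CD8 markers (1359 and 1619 CPM summed) and all 8 exhausted markers, regulatory cells all 6 regulatory markers (5840 and 5956 CPM) and NK-like cells all 7 NK markers (2156.5 and 2338.6 CPM). All 12 monocyte and macrophage markers were also counted in these classes, at 1045.0 and 1112.5 CPM summed in exhausted-like cells, 1787 and 1673 CPM in regulatory cells and 3303.5 and 2428.4 CPM in the Il4 Il13 cluster, and their part in the results was not tested. Although left out of the clustering, Nrgn and Rgs16 were among the 10 leading genes of the exhausted-like cluster and Penk among those of the Il4 Il13 cluster, so a cluster against the rest is a description only.

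**Figure D1:**
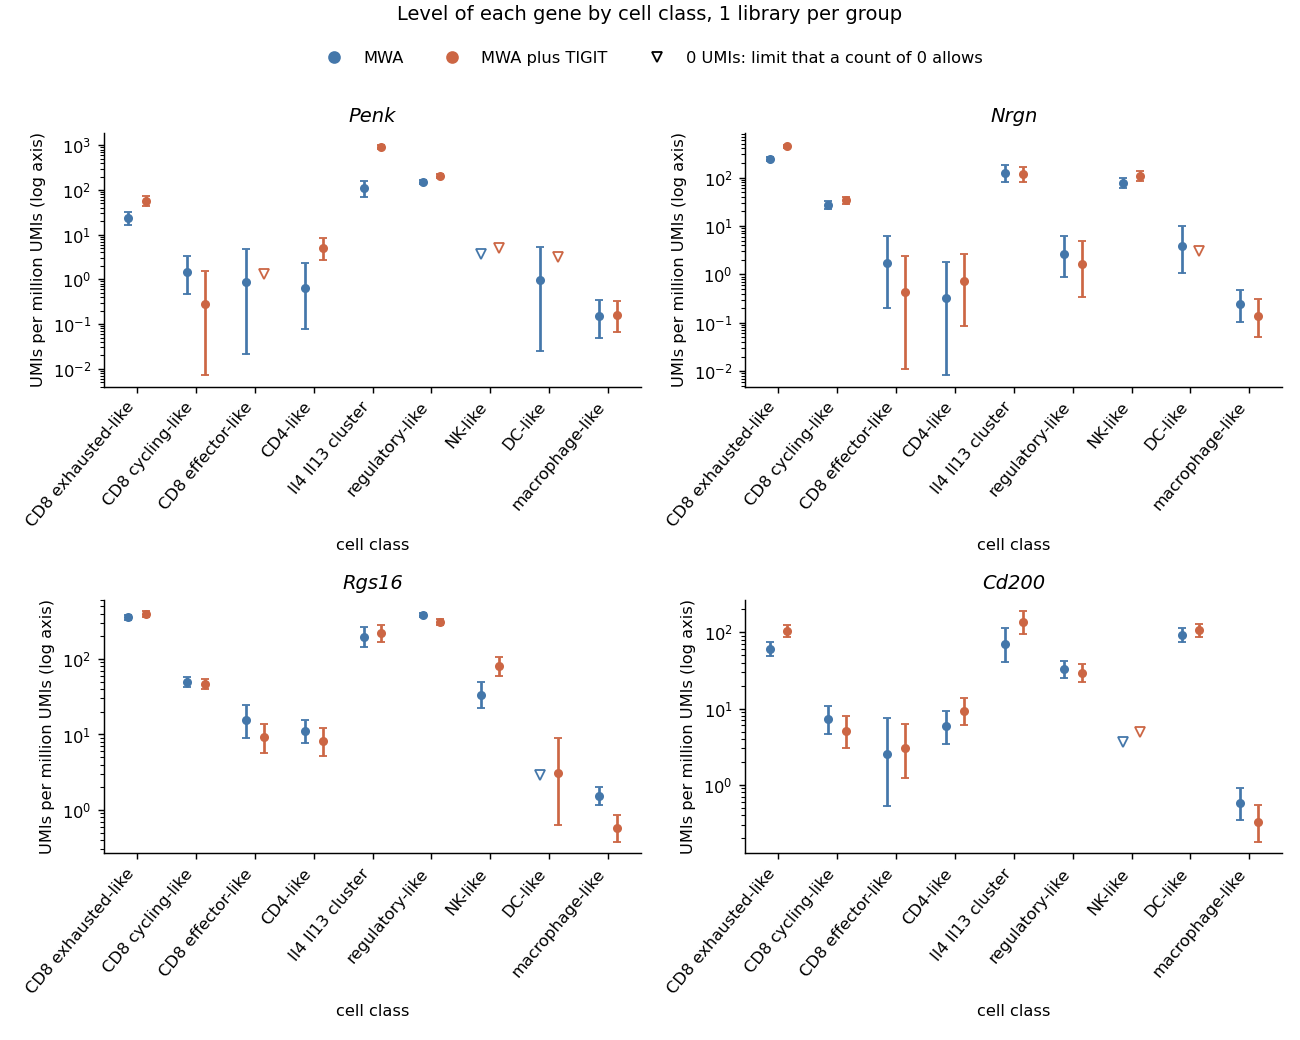
Level of each gene (CPM, log axis) by cell class, with the MWA library and the MWA plus TIGIT library as separate points and exact Poisson 95% intervals as bars. Averaged over the libraries and among the classes plotted, Penk was highest in the Il4 Il13 cluster and the regulatory-like cells, Nrgn in exhausted-like CD8 cells, Rgs16 in both exhausted-like and regulatory-like cells, and Cd200 in the Il4 Il13 cluster, dendritic-like and exhausted-like cells.

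Penk was a transcript of few T cells. All kept cells held 441 Penk UMIs in 127 cells of the MWA library and 739 Penk UMIs in 111 cells of the MWA plus TIGIT library, and the 10 cells with most Penk held 41.0% and 43.4% of them. Cells with 10 or more Penk UMIs numbered 10 in the MWA library and 26 in the MWA plus TIGIT library. The regulatory classes held 78.9% of the library's Penk UMIs in the MWA library and 54.1% in the MWA plus TIGIT library, and the Il4 Il13 cluster held 5.67% and 33.6%. More Penk UMIs in fewer Penk-positive cells therefore went with a larger part of the UMIs in the Il4 Il13 cluster.

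In regulatory-like cells, outside the cycling and interferon-induced regulatory clusters, Penk counted 283 UMIs in 84 of 735 cells of the MWA library (11.4%, 9.22 to 14.0%) and 383 UMIs in 65 of 597 cells of the MWA plus TIGIT library (10.9%, 8.504 to 13.7%). The Penk level was 151 CPM (134 to 169) and 210 CPM (190 to 233), a log2 ratio of 0.48 (0.26 to 0.71). The share of cells with a Penk UMI was thus nearly the same while the level was higher in the MWA plus TIGIT library. If the Penk UMIs had been spread over the cells by depth, 224 and 268 cells would have held one, against the 84 and 65 that did. The 10 cells with most Penk held 48.4% and 53.5% of the UMIs, and 50% of the UMIs sat in 11 cells of the MWA library and 9 of the MWA plus TIGIT library. The 3 highest regulatory-like cells had 30, 17 and 15 Penk UMIs in the MWA library and 50, 30 and 25 in the MWA plus TIGIT library, whereas 39 and 25 cells had a single one. Foxp3, the transcription factor that defines regulatory T cells, was counted in 66.7% and 73.8% of the Penk-positive and in 59.0% and 65.8% of the Penk-negative regulatory-like cells. The Penk-positive cells were the deeper ones, with a median of 2419 and 3494 UMIs against 2154 and 2641, and the part of depth in that difference was not tested. Regulatory-like cells with 10 or more Penk UMIs numbered 7 in the MWA library and 15 in the MWA plus TIGIT library. Of these, 3 and 9 had a Foxp3 UMI. In the MWA plus TIGIT library the cells with 50 and 30 Penk UMIs had no Foxp3 UMI. Those with 25 and 22 Penk UMIs had 6 and 8 of Foxp3.

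With every cell thinned to 1000 UMIs, which left out 26 and 16 shallower regulatory-like cells, the share with a Penk UMI was 6.77% and 7.75%. The background share, taken in macrophage-like cells, was 0.117% and 0.156% before thinning (5 of 4277 and 7 of 4484 cells, median 7573 and 9403 UMIs), and the B-like cells had none in 81 and 63 cells (median 1859 and 2425 UMIs). Regulatory-like cells, with a median of 2194 and 2728 UMIs, thus lay far above both at a lower depth than the macrophage-like cells.

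All regulatory classes together held 348 Penk UMIs in the MWA library and 400 in the MWA plus TIGIT library, at 158 and 174 CPM. The log2 ratio was 0.14 (-0.07 to 0.35), and -0.15 after thinning. The smaller ratio than in regulatory-like cells alone came with the cycling regulatory cluster, where 63 Penk UMIs in 37 cells stood against 15 in 48 cells (237 and 37.7 CPM, log2 ratio -2.65, -3.57 to -1.82). One cell there held 37 of the 63 UMIs and another 13 of the 15, and in the MWA library this was the class with the highest Penk level. Neither of these cells had a Foxp3 UMI, and each had 1 Cd4 UMI. The summed regulatory markers of that cluster were 3390 CPM in the MWA library and 1828 CPM in the MWA plus TIGIT library, and its CD8 markers 252 and 722 CPM, so its makeup differed between the libraries. The part of that makeup in the Penk ratio was not tested.

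The Il4 Il13 cluster held the highest Penk level of any class in the MWA plus TIGIT library. There Penk counted 25 UMIs in 7 of 60 cells of the MWA library (11.7%, 4.82 to 22.6%) and 248 UMIs in 17 of 58 cells of the MWA plus TIGIT library (29.3%, 18.1 to 42.7%), at 110 CPM (71.4 to 163) and 917 CPM (806 to 1038), a log2 ratio of 3.06 (2.46 to 3.71). Thinned to 1000 UMIs, 5.08% and 26.8% of the cells had a Penk UMI. The 17 cells were fewer than the 55.0 that spreading by depth would give, as the 7 were fewer than 19.8. The difference was carried by 7 cells of the MWA plus TIGIT library with 46, 37, 33, 31, 22, 15 and 15 Penk UMIs, against a highest cell of 11 in the MWA library. All 7 had a Cd4 UMI, and none had a Cd8 or a Foxp3 UMI. Of the cells with Cd4 but no Cd8 UMIs, 24 in the MWA library held 11 Penk UMIs in 5 cells and 35 in the MWA plus TIGIT library held 240 in 15 cells, while the cells with Cd8 but no Cd4 UMIs (16 and 8) held 0 and 3. Ccl1, a chemokine of activated T cells, was counted in 57.1% and 52.9% of the Penk-positive and in 13.2% and 12.2% of the Penk-negative cells of the cluster, whose median depths were 4552 and 4918 against 3400 and 4154 UMIs.

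The cytokine genes of that cluster were held by very few of its cells. Il4 stood at 291 CPM in the MWA library and 11.1 CPM in the MWA plus TIGIT library, but was counted in 3 of 60 and 3 of 58 cells. Il5 stood at 110 and 3.70 CPM and was counted in 1 cell of each library, and Il13 stood at 35.3 and 96.1 CPM in 5 cells of each. These differences therefore rest on 1 to 5 cells. Areg, an epidermal growth factor family ligand, stood at 110 and 262 CPM. The cluster is small and mixed in both libraries, and whether it holds the same kind of cells in each was not tested. Of the 2964 genes with at least 20 UMIs there, 8.23% lay past 2-fold in either direction (5.06% higher), and of the members Penk alone did (1 of 4).

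Exhausted-like CD8 cells held 39 Penk UMIs in 9 of 284 cells of the MWA library (3.17%) and 67 in 12 of 183 cells of the MWA plus TIGIT library (6.56%). The level was 23.2 CPM (16.5 to 31.7) and 57.0 CPM (44.2 to 72.4), a log2 ratio of 1.30 (0.70 to 1.90), and the thinned share was 1.43% and 3.85%. In the MWA library 1 cell held 20 of the UMIs and had no Cd8 UMI among 5535 in all. In the MWA plus TIGIT library 2 cells, both with Cd8 UMIs, held 45 of the 67. Without cells that carried a UMI of a Trav16 family segment, the commonest T cell receptor alpha family among the exhausted-like cells of the MWA library, the log2 ratio was 0.10. The cells so removed from the MWA library held no Penk UMI. Those removed from the MWA plus TIGIT library included its highest Penk cell, with 25 of the 67 UMIs and 2 UMIs of the Trav16 family. With the Il4 Il13 cluster counted among the exhausted-like cells it was 2.70. The other CD8 classes together held 17 Penk UMIs in the MWA library and 1 in the MWA plus TIGIT library.

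CD4-like cells had almost no Penk, 2 UMIs in 907 cells and 14 in 756 cells, 12 of the latter in 1 cell. Regulatory-like cells exceeded them 231-fold in the MWA library and 41.96-fold in the MWA plus TIGIT library. Where cells were instead gated by their own UMIs, those with Cd4 but neither Foxp3 nor Cd8 UMIs held 60 Penk UMIs in 13 of 600 cells and 326 in 25 of 615 cells (25.8 and 122 CPM), since this gate takes in the Cd4 cells of the Il4 Il13 cluster and regulatory-like cells without a Foxp3 UMI. NK-like cells had none, 0 of 166 and 0 of 116 cells, which allows a share of cells with a Penk UMI of up to 1.81% and 2.59% and sets no limit on cells that express the gene below capture.

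**Figure D2:**
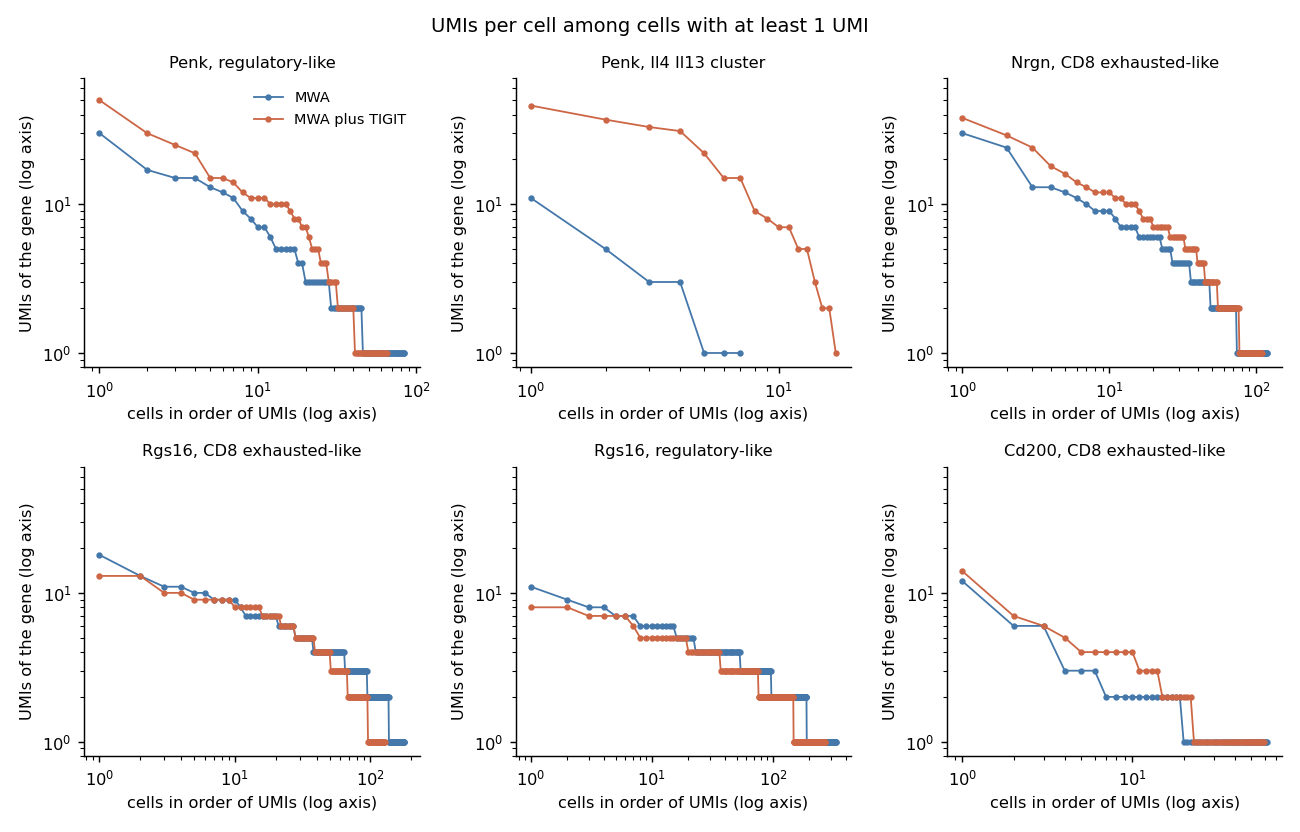
Cells ranked by their UMIs of the gene (log axis) against the UMIs in each cell (log axis), for 6 pairs of gene and class in the MWA (blue) and MWA plus TIGIT (orange) libraries. Penk fell from 50 UMIs in the top regulatory-like cell and 46 in the top Il4 Il13 cell to 1 within a short run of cells, whereas Rgs16 in regulatory-like cells stayed low and spread over 330 and 269 cells.

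Nrgn was concentrated in the exhausted-like CD8 class, with its highest level in the Ccl1-led part described below. These cells were 3.08% of the kept cells of the MWA library and 2.01% in the MWA plus TIGIT library, and they held 61.8% and 65.5% of the library's Nrgn UMIs. Nrgn counted 409 UMIs in 119 of 284 exhausted-like cells of the MWA library (41.9%, 36.1 to 47.9%) and 519 UMIs in 109 of 183 cells of the MWA plus TIGIT library (59.6%, 52.1 to 66.7%). The level was 244 CPM (220 to 268) and 441 CPM (404 to 481), a log2 ratio of 0.86 (0.67 to 1.05), which is short of 2-fold. Thinned to 1000 UMIs, which left out 4 and 1 cells, 17.9% and 26.9% of cells had a Nrgn UMI, so the share was higher in the MWA plus TIGIT library at equal depth too. In the same library the exhausted-like cells exceeded all other CD8 cells 18.1-fold (14.5 to 22.8) and 30.5-fold (25.0 to 37.5). Neither library's Nrgn was evenly spread within the class: by depth 205 and 164 cells would have held a UMI, the highest cells had 30 and 38 UMIs, and the 10 highest held 34.2% and 36.2%.

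Of the genes with at least 20 UMIs in exhausted-like cells, 4.25% lay past 2-fold in either direction (327 of 7694, 3.09% higher and 1.16% lower in the MWA plus TIGIT library), and of the 4 members 1 did, Penk. The median log2 ratio of all those genes was 0.13 and that of the members 0.81. In all CD8 cells together, where exhausted-like cells were a smaller part in the MWA plus TIGIT library, 2.19% of the 10988 genes lay past 2-fold (1.27% higher and 0.928% lower) and none of the 4 members did. Without the minimum of 20 UMIs the share was 21.1% of genes with a UMI, with 10.1% higher. There the log2 ratio was 0.18 (-0.35 to 0.72) for Penk, 0.24 (0.07 to 0.41) for Nrgn, -0.34 (-0.49 to -0.19) for Rgs16 and 0.02 for Cd200. Over all CD8 cells the differences seen within the exhausted-like class were thus smaller or turned, and the Nrgn ratio became -0.027 with cells thinned to 1000 UMIs and -0.77 without cells over 5000 UMIs. The Rgs16 ratio became 0.14 without the cells of the Trav16 family.

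Cycling CD8 cells held most of the other CD8 Nrgn (98 and 122 UMIs in all CD8 cells outside the exhausted-like class), 94 UMIs in 27 of 486 cells and 119 UMIs in 27 of 469 cells (27.3 and 33.7 CPM, log2 ratio 0.30, -0.10 to 0.71). Those cells often carried the other members. Of the 27 Nrgn-positive cycling cells in each library, 16 and 18 also held Rgs16, where 5.42 and 3.50 would by depth, and 7 and 7 held Cd200, where 2.24 and 1.58 would. For a pair of genes, the number by depth comes from the shares of cells with each gene, multiplied within classes of cells of like depth. Rgs16 and Cd200 met in 9 and 7 cycling cells against 3.45 and 1.77 by depth. Within the exhausted-like class the same pairs stayed near the numbers from depth: Nrgn and Rgs16 met in 82 cells of each library, against 78.3 and 79.1.

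NK-like cells held Nrgn in both libraries, 65 UMIs in 28 of 166 cells (16.9%) and 65 UMIs in 21 of 116 cells (18.1%). The level was 78.5 CPM (60.6 to 100) and 108 CPM (83.0 to 137), a log2 ratio of 0.45 (-0.06 to 0.97), and 6.02% and 5.22% of cells had a Nrgn UMI after thinning. The 10 highest cells held 63.1% and 76.9% of the UMIs, and without them the log2 ratio was -0.15. The NK-like levels thus did not differ beyond counting error, and the interval of the ratio still allows a 0.97 higher log2 level in the MWA plus TIGIT library. In macrophage-like cells Nrgn counted 8 and 6 UMIs in all.

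CD4-like cells held 1 and 2 Nrgn UMIs and regulatory-like cells 5 and 3. All regulatory classes held 14 and 15, of which 9 and 12 sat in 1 cycling cell each, so no level of Nrgn in regulatory cells can be read from these counts. The Il4 Il13 cluster held 28 and 32 Nrgn UMIs in 7 and 9 cells (124 and 118 CPM). A cluster of T cells with few UMIs (42 and 46 cells, median 715 and 819 UMIs) held 8 and 6, of which 7 and 5 were in 1 cell.

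**Figure D3:**
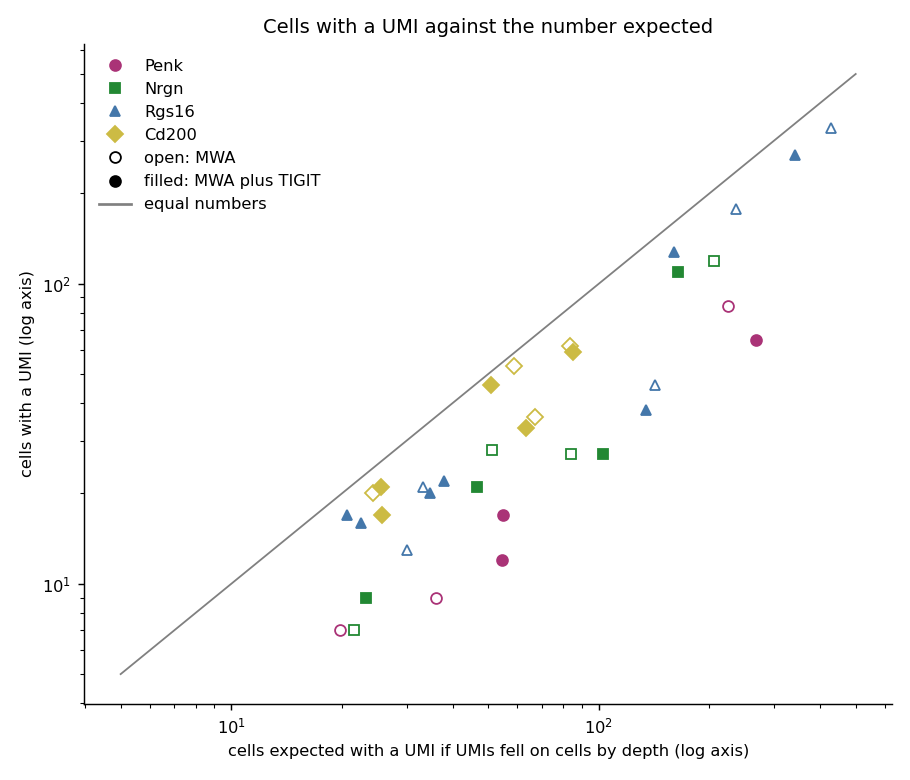
Cells with a UMI of the gene (vertical, log axis) against the number that the same UMIs would reach if spread over the class by depth (horizontal, log axis), for each gene and class in the MWA (open) and MWA plus TIGIT (filled) libraries, with the line of equality in grey. Pairs with at least 20 UMIs in 8 classes are shown and all lie below the line, Cd200 in regulatory-like cells of the MWA library (53 against 58.7) close to it and Penk in those of the MWA plus TIGIT library (65 against 268) far from it.

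Rgs16 marked both exhausted-like CD8 and regulatory-like cells. Exhausted-like cells held 596 Rgs16 UMIs in 62.7% of the cells of the MWA library and 460 UMIs in 69.95% of cells in the MWA plus TIGIT library, at 355 CPM (327 to 385) and 391 CPM (356 to 429), a log2 ratio of 0.14 (-0.04 to 0.32). Regulatory-like cells held 720 UMIs in 44.9% and 561 in 45.1% of the cells, at 383 CPM (356 to 412) and 308 CPM (283 to 335), a log2 ratio of -0.31 (-0.48 to -0.15). The order of the classes was therefore not the same in the libraries: regulatory-like over exhausted-like was 1.08-fold (0.97 to 1.21) in the MWA library and 0.79-fold (0.69 to 0.89) in the MWA plus TIGIT library. Both classes stood far above CD4-like cells, which regulatory-like cells exceeded 34.6-fold and 37.4-fold.

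The Rgs16 UMIs were spread over many cells. The 10 regulatory-like cells with most Rgs16 held 10.4% and 11.6% of its UMIs, and 330 and 269 cells had a UMI where 428 and 342 would by depth. In exhausted-like cells the 10 highest held 18.3% and 21.5%. Thinned to 1000 UMIs, 25.7% and 33.5% of exhausted-like and 27.8% and 23.1% of regulatory-like cells had a Rgs16 UMI, against 1.03% and 0.56% of macrophage-like cells before thinning. The exhausted-like ratio was -0.03 with TMM factors, so whether the classes differed in direction cannot be read from these levels.

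All regulatory classes together held 770 and 614 Rgs16 UMIs (350 and 267 CPM), a log2 ratio of -0.39 (-0.54 to -0.23). Among the 9090 genes with at least 20 UMIs in them 3.53% lay past 2-fold (2.29% higher and 1.24% lower), and none of the 4 members did. In CD4-like cells Rgs16 counted 34 and 23 UMIs (11.1 and 8.24 CPM, log2 ratio -0.43, -1.26 to 0.38). There 2.48% of the 8919 genes lay past 2-fold (0.662% lower), and neither of the 2 members with enough UMIs, Rgs16 and Cd200, did.

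NK-like cells held 28 Rgs16 UMIs in 12.7% of the cells of the MWA library and 49 UMIs in 19.0% of cells in the MWA plus TIGIT library. The level was 33.8 and 81.1 CPM, a log2 ratio of 1.26 (0.56 to 1.99), the 1 member of the 2 with enough UMIs past 2-fold there, against 4.65% of 5810 genes (3.01% higher and 1.64% lower). After thinning, 4.82% and 4.35% of the cells had a Rgs16 UMI and the log2 ratio of the remaining 8 and 5 UMIs was -0.15. Without cells over 5000 UMIs it was -0.11 (-1.44 to 1.17) on 14 and 10 UMIs. The ratio thus turned under both, on counts too low to give its direction.

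Cycling CD8 cells held 173 and 164 Rgs16 UMIs in 46 and 38 cells (50.2 and 46.4 CPM), and effector-like cells 18 and 21. In a CD8 cluster led by Cdh1 it counted 8 and 23 UMIs, a log2 ratio of 1.86 (0.65 to 3.23). In the Il4 Il13 cluster it counted 45 UMIs in 13 cells and 60 in 20 cells (198 and 222 CPM, log2 ratio 0.16), and 1 cell of the MWA library held 19 of the 45. Without the 10 highest cells that ratio was 1.92.

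**Figure D4:**
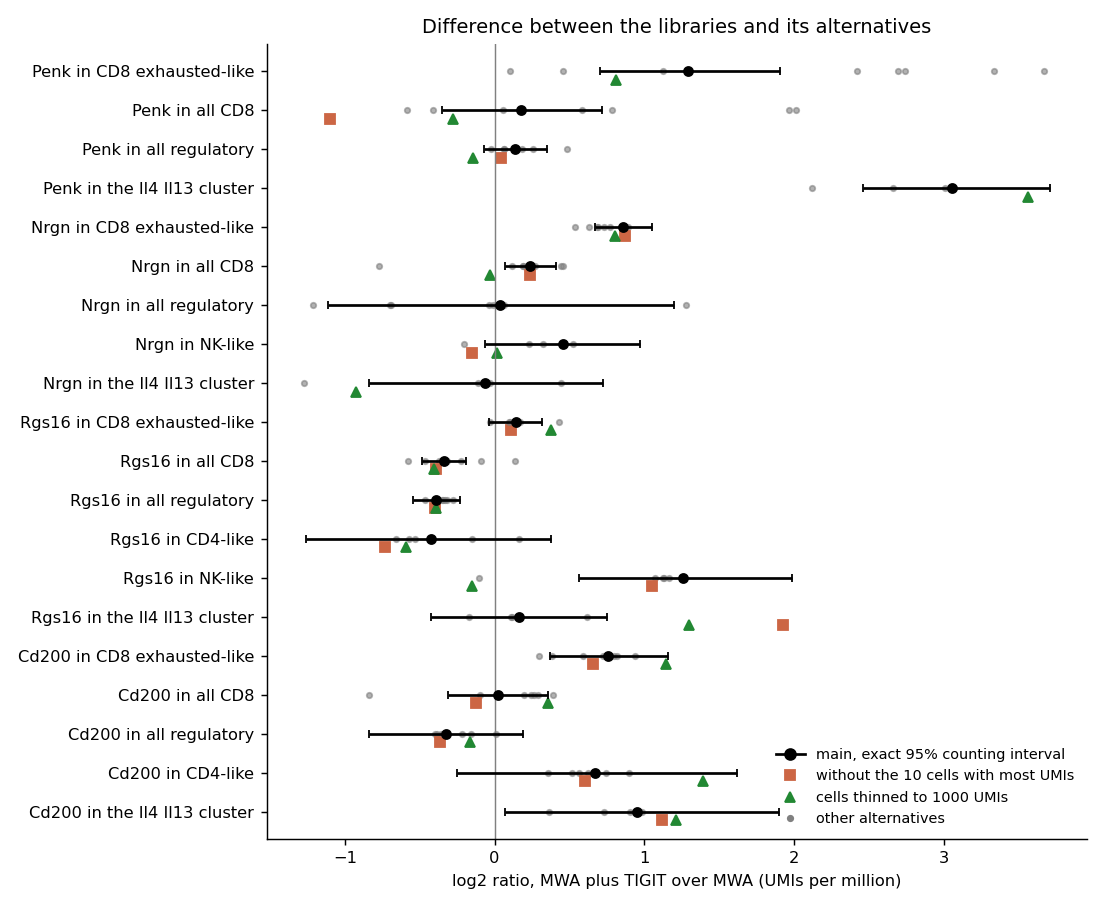
Log2 ratio of the MWA plus TIGIT level over the MWA level for each gene and class with enough UMIs, as black points with exact 95% counting intervals, beside the same ratio under other processing (orange squares without the 10 cells with most UMIs, green triangles after thinning to 1000 UMIs, grey points for the rest). Nrgn in exhausted-like cells stayed between 0.54 and 0.89, Penk there ranged from 0.10 to 3.67, and Rgs16 in NK-like cells (1.26) lay at -0.15 after thinning.

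Cd200 was counted mostly as 1 or a few UMIs per positive cell. Exhausted-like cells held 102 Cd200 UMIs in 62 cells of the MWA library (21.8%) and 121 in 59 cells of the MWA plus TIGIT library (32.2%), at 60.7 CPM (49.5 to 73.7) and 103 CPM (85.4 to 123), a log2 ratio of 0.76 (0.37 to 1.16). After thinning 4.64% and 10.99% of the cells had a Cd200 UMI. By depth 83.4 and 84.9 cells would have held one. The 10 highest cells held 40.2% and 46.3% of the Cd200 UMIs, and the highest had 12 and 14, so that a few cells carried much of this level too.

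Other classes reached the same Cd200 level. The Il4 Il13 cluster held 16 UMIs in 13 cells and 37 in 17 cells (70.6 and 137 CPM, log2 ratio 0.95, 0.07 to 1.90). Dendritic-like cells held 96 and 103 UMIs (93.3 and 106 CPM, log2 ratio 0.19, -0.23 to 0.61) in 25.0% and 28.7% of the cells. B-like cells held 13 and 11 (77.9 and 49.6 CPM). Averaged over the libraries, the Il4 Il13 cluster, dendritic-like and exhausted-like cells thus stood at 104, 99.9 and 81.8 CPM, and their ranges between the libraries overlapped. In the MWA library alone the B-like cells stood above the Il4 Il13 cluster and the exhausted-like cells.

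Regulatory cells of all classes held 73 and 61 Cd200 UMIs (33.2 and 26.5 CPM, log2 ratio -0.32, -0.84 to 0.19). CD4-like cells held 18 and 26 (5.86 and 9.31 CPM, log2 ratio 0.67, -0.25 to 1.62). Neither interval excluded 0. NK-like cells had no Cd200 UMI in either library, 0 of 166 and 0 of 116 cells, and macrophage-like cells 19 and 14 in all, of which 8 sat in 1 cell of the MWA library.

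At a finer resolution the exhausted-like cells split into a subcluster led by Ccl1 (76 and 62 cells) and a subcluster led by Gzmf, a granzyme (208 and 121 cells). By the naming rule the Gzmf-led cluster stayed exhausted-like at that resolution, whereas the Ccl1-led one took no name from the marker lists. With the 4 genes among the features, the cluster matched to the whole exhausted-like class was likewise left unnamed and led by Ccl1. The exhausted-like name is thus not secure for the Ccl1-led cells. All 4 genes were higher in the Ccl1 subcluster in both libraries. Nrgn counted 265 and 355 UMIs there (637 and 832 CPM) in 68.4% and 72.6% of cells, against 144 and 164 (114 and 219 CPM) in 32.2% and 52.9% of the cells led by Gzmf. Cd200 stood at 140 and 204 CPM against 34.8 and 45.4 CPM, a 4.01-fold and 4.50-fold difference. Penk counted 38 and 61 UMIs against 1 and 6, so nearly all the Penk of exhausted-like cells lay in the Ccl1 subcluster. Rgs16 differed least, 445 and 429 CPM against 325 and 370 CPM. That was 1.37-fold (1.14 to 1.63) in the MWA library and 1.16-fold (0.96 to 1.40) in the MWA plus TIGIT library, where the interval included 1.

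The subclusters also held the difference between the libraries unequally. The Nrgn log2 ratio was 0.39 (0.15 to 0.62) in the Ccl1 subcluster and 0.94 (0.61 to 1.28) in the Gzmf subcluster. That of Penk was 0.65 (0.04 to 1.27) in the Ccl1 subcluster, short of 2-fold. In the Gzmf subcluster it was 3.34 (0.30 to 8.86) on 1 and 6 UMIs, under the 20 UMIs set for a ratio. That of Cd200 was 0.55 (0.05 to 1.05) and 0.38 (-0.31 to 1.06), and that of Rgs16 was -0.05 and 0.19. The chemokine gene Xcl1 stood at 3890 and 5888 CPM in the Ccl1 subcluster and at 608 and 825 CPM in the Gzmf subcluster. The inhibitory receptor gene Havcr2 counted 3 and 15 UMIs in the Ccl1 subcluster against 143 and 90 in the Gzmf subcluster. Entpd1 and Cd38 were lower in the Ccl1 subcluster too (0.24-fold and 0.22-fold, 0.19-fold and 0.23-fold). Cd160 was higher there (2.92-fold and 2.45-fold). Lag3 was higher there in the MWA library (1.92-fold, 1.53 to 2.41). In the MWA plus TIGIT library its interval included 1 (1.18-fold, 0.90 to 1.52). Pdcd1 (0.83 and 0.97) and Tox (1.08 and 1.22) were about even, and Tigit stood at 1.52 and 1.00. The exhausted markers thus did not go 1 way, and Havcr2 was not compared with the members cell by cell.

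**Figure D5:**
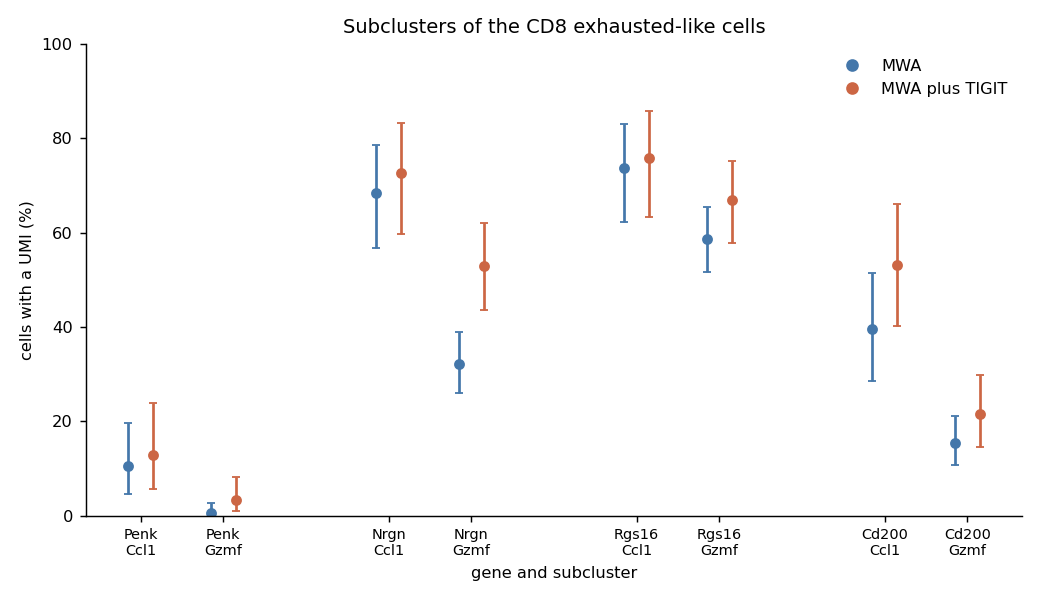
Percent of cells with a UMI of each gene in the Ccl1-led and Gzmf-led subclusters of exhausted-like CD8 cells, in the MWA and MWA plus TIGIT libraries, with exact binomial 95% intervals as bars. Nrgn was counted in 68.4% and 72.6% of the Ccl1-led cells against 32.2% and 52.9% of the Gzmf-led cells, and Penk in 10.5% and 12.9% against 0.48% and 3.31%.

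The members were also counted in the same cells elsewhere. Of the 9 and 12 Penk-positive exhausted-like cells, 7 and 9 held Nrgn (4.004 and 7.19 by depth) and 4 and 8 held Cd200 (2.22 and 4.08 by depth). With Rgs16 the numbers were near those by depth, 7 and 8 cells against 6.00 and 8.47. In the Il4 Il13 cluster of the MWA plus TIGIT library 13 of the 17 Penk-positive cells held Rgs16 (6.19 by depth) and 11 held Cd200 (5.31 by depth), while in the MWA library 2 and 4 of 7 did (1.83 and 1.92 by depth). Among regulatory-like cells Penk met Rgs16 in 48 and 36 cells (39.0 and 29.8 by depth). These numbers carry no test, and cells of 1 library are not independent replicates.

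Few of the genes through which the members act lay past 2-fold between the libraries, and some were hardly counted at all. Few of all genes did either (4.25% in exhausted-like and 3.53% in regulatory cells), so a list with none past 2-fold does not stand apart. Of the opioid list (18 genes, with the other precursors, processing enzymes, receptors and peptidases), 5 had at least 20 UMIs in exhausted-like cells and 8 in regulatory cells, and none lay past 2-fold in either. The mu receptor gene Oprm1 had at most 2 UMIs in any class, and the delta receptor gene Oprd1 had none in the T cell classes and 7 and 0 in dendritic-like cells. The convertase gene Pcsk1 was counted at 28 and 21 UMIs in regulatory cells (12.7 and 9.14 CPM) and at 0 in exhausted-like and NK-like cells, so Penk and this processing enzyme were both found in regulatory cells. Ogfr, a nuclear receptor for an enkephalin and unrelated to the classical ones, stood at 42.3 and 49.2 CPM in regulatory cells.

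Around Nrgn, 14 of 18 calmodulin and calcineurin genes had enough UMIs in exhausted-like cells and none lay past 2-fold, against 4.25% of all genes. The calmodulin genes Calm2 and Calm3 had log2 ratios of 0.27 (0.03 to 0.51) and 0.33 (0.09 to 0.58), with intervals above 0. The median of the 14 was 0.16, against 0.13 for all genes. Of 17 other RGS family genes 7 could be compared in exhausted-like cells, none past 2-fold, and Rgs1, the most counted, stood at 802 and 718 CPM (log2 ratio -0.16). In regulatory cells 9 could be compared, where 2.29% of all genes lay past 2-fold higher and 1.24% lower. Rgs11 was higher in the MWA plus TIGIT library (1.30, -0.03 to 2.80) on 7 and 18 UMIs. Rgs9 was lower (-1.22, -2.14 to -0.36) on 38 and 17 UMIs. Of the most counted RGS genes there, Rgs1 had a log2 ratio of 0.11 (0.04 to 0.19), Rgs10 of -0.17 (-0.31 to -0.04) and Rgs2 of -0.18 (-0.32 to -0.04). In NK-like cells Rgs19 was higher (1.01) among 6, against 3.01% of all genes, beside 0.38 for Rgs1 and 0.57 for Rgs2.

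Among the 4 CD200 receptor genes, Cd200r1 was highest in regulatory-like cells, at 86.8 and 103 CPM, against 34.5 and 43.4 CPM in exhausted-like cells and 11.8 and 13.3 CPM in macrophage-like cells. Cd200r4 stood at 11.3 and 14.8 CPM in macrophage-like cells. Neither gene lay past 2-fold in exhausted-like or regulatory cells, where 4.25% and 3.53% of all genes did. The receptor gene was thus counted in the same tumors as its ligand, and at a higher CPM in regulatory-like than in macrophage-like cells.

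Of 30 activation and exhaustion genes, all 30 could be compared in exhausted-like cells, and 6 lay past 2-fold higher and 3 lower in the MWA plus TIGIT library, against 3.09% and 1.16% of all genes there. Ccl1 (232 and 817 CPM, log2 ratio 1.82), Ccl3 (1.27), Cd160 (1.02), Tnf (1.08), Crtam (1.15) and Il2 (3.32) were the higher ones, and Gzmf (-1.36), Gzmd (-2.10) and Gzme (-1.45) the lower. The Il2 ratio rests on 3 and 21 UMIs (1.58 to 5.71) and that of Gzme on 43 and 11. Few cells held the granzymes: in the Gzmf subcluster Gzmf was counted in 26 and 15 cells and Gzmd in 10 and 3. Gzmb, the most counted granzyme gene, had a log2 ratio of 0.22 (0.07 to 0.37) and Gzmc of -0.30 (-0.64 to 0.03). Among the granzyme genes, Gzmd, Gzme and Gzmf are near-identical copies, and how reads were divided among these is uncertain. In NK-like cells 5 of 23 were higher, Gzmf (1.96), Ccl1 (1.60) and Ccl3 (1.33) among them, and Gzmc was lower (-1.02), against 3.01% and 1.64% of all genes. In regulatory cells 1 of 25 was higher (Cd160, 2.08) and 1 lower (Ccl1, -4.08, at 81 and 5 UMIs), against 2.29% and 1.24% of all genes. Among the regulatory-like cells of the MWA library, Ccl1 was counted in only 2 Penk-positive and 5 Penk-negative cells. In CD4-like cells 1 of 20 was higher (Gzmc, 2.25, at 6 and 26 UMIs), against 1.82% of all genes.

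The genes whose levels across classes most resembled each member were ranked by Pearson r of log2(CPM + 10) among 5506 genes. The 16 named classes in both libraries gave 32 points that share libraries, depth and clusters. Unnamed clusters were left out, among them the Il4 Il13 cluster, where Penk (917 CPM) and Cd200 (137 CPM) were highest in the MWA plus TIGIT library. The values thus do not cover that cluster. For Nrgn these were Csf2 (0.874), Gzmf (0.863), Ccl1 (0.843), Xcl1 (0.834) and Sema6d (0.831), a group counted most in exhausted-like and NK-like cells. For Rgs16 they were Tnfrsf9 (0.897), Ikzf2 (0.859), Tigit (0.847), Sept7 (0.840) and Ikzf4 (0.833), all highest in a regulatory class. Penk was most like Ikzf4 (0.897), Sdf4 (0.887), Tff1 (0.868), Gm28112 (0.854) and Sv2c (0.852), and its r with Rgs16 was 0.798. Cd200 had lower values, led by Rel (0.771), Egr3 (0.711), Itpr1 (0.708), H2-Oa (0.690) and Hmgn3 (0.672), whose highest classes were B-like or dendritic-like cells.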

How the data were processed

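Leukocytes of the un-ablated MC38 tumor were profiled by droplet single-cell RNA sequencing, 1 library per group. The authors aligned the reads to mm10 and deposited raw UMI count matrices. The submitters' processing notes name Cell Ranger 6.1.1, and the header of the deposited matrices names cellranger 4.0.0. The tables hold 66152465 UMIs in 10217 barcodes for the MWA group and 78751205 UMIs in 10190 barcodes for the MWA plus TIGIT group.

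Barcodes with under 200 genes (1 and 1) or over 10% mitochondrial UMIs (179 and 276) were left out. Doublets were called by a nearest-neighbour comparison with simulated doublets at a rate of 0.8% per 1000 barcodes and left out (806 and 786, median 11013 and 13504 UMIs). Cells were integrated and clustered in Seurat 5.3.0 (R 4.3.3, 3000 integration features, 40 principal components, resolutions 0.1, 1 and 0.5 for all, T and NK, and CD8 cells) without the 4 genes among the features. Clusters were named from marker lists, and the thresholds for naming, 20 CPM of Il4 and Il13 summed among them, were set after the clusters were seen. The members and all gene lists were chosen with earlier results of these data known. The named genes were the 4 members, the 5 genes most like each member among those with at least 50 CPM in a class, and 2 to 4 examples with most UMIs of each fixed list, and the other list genes named past 2-fold were chosen after their values were seen. 1 gene of these lists is not reported here.

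Raw UMIs were summed per class and library. With 1 library per group no test across samples was possible, and genes with at least 20 UMIs in both libraries together were described as past 2-fold or not. Ratios have exact conditional binomial intervals and shares exact Clopper-Pearson intervals, at 95%. A count of 0 allows 3 counts. Cells expected to hold a UMI were computed by spreading the class's UMIs in proportion to each cell's depth. The ratio intervals were tried on counts simulated with Poisson error alone, the model they assume. Concentration of UMIs in few cells was not simulated, so how the intervals hold under it was not tested. Alternatives were the removal of cells over 5000 UMIs, doublets kept, the members used as features, a finer resolution of 1.0, TMM factors (edgeR 4.0.16), thinning, marker gates, removal of the 10 highest cells and of Trav16 cells, and no filter on UMIs. Python 3.11.15 with numpy 2.4.6, scipy 1.17.1 and pandas 2.3.3 was used. No deposited column held authors' comparisons.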

Additional observations from a re-analysis of the deposited data

Results flagged for a closer look

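The log2 ratios of Penk and Rgs16 between the libraries had counting intervals wholly above 0 in some classes and wholly below in others. A difference between classes was not tested, and treatment and library cannot be told apart. The log2 ratio of Penk, MWA plus TIGIT over MWA, was 3.06 in the Il4 Il13 cluster, 1.30 in exhausted-like CD8 cells and 0.48 in regulatory-like cells, against -2.65 in cycling regulatory cells, where 1 cell of the MWA group held 37 of 63 UMIs. The log2 ratio of Rgs16 was 1.86 in the CD8 cluster led by Cdh1 and 1.26 in NK-like cells (-0.15 after thinning), against -0.31 in regulatory-like cells, -0.87 in cycling regulatory cells and -1.40 in macrophage-like cells. The macrophage-like ratio rests on 51 and 25 UMIs in 4277 and 4484 cells, and the Cdh1 cluster ratio on 8 and 23 UMIs.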

How the results depend on the processing

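Of 187 alternative values of 20 log2 ratios, 147 stayed within the counting interval of the value reported, 35 moved out of it, and 5 turned the sign of a ratio whose interval excluded 0. No replicate could be left out, and no paired analysis was possible because each group has 1 library. TMM factors, which shift every log2 ratio of a class by -0.05 to -0.17, moved no result out of its interval. Without cells over 5000 UMIs the log2 ratio in all CD8 cells was 0.79 for Penk, -0.77 for Nrgn, -0.58 for Rgs16 and -0.84 for Cd200, in exhausted-like cells 3.67, 0.54, 0.43 and 0.30 in the same order, in NK-like cells -0.21 for Nrgn and -0.11 for Rgs16, in all regulatory cells -1.21 for Nrgn, and in the Il4 Il13 cluster 2.12 for Penk and -1.27 for Nrgn. After thinning to 1000 UMIs it was -0.027 for Nrgn in all CD8 cells, 0.38 for Rgs16 in exhausted-like cells, -0.15 for Penk in all regulatory cells, -0.15 for Rgs16 in NK-like cells, and -0.92 for Nrgn and 1.30 for Rgs16 in the Il4 Il13 cluster. Without the 10 highest cells it was -1.10 for Penk in all CD8 cells, -0.15 for Nrgn in NK-like cells and 1.92 for Rgs16 in the Il4 Il13 cluster. The Penk ratio in exhausted-like and all CD8 cells was 2.42 and 1.97 with doublets kept, where 77.1% of the Il4 Il13 cells formed a CD8 cluster outside the exhausted-like one, and 2.74 and 2.01 with the members as features. In exhausted-like cells at resolution 1.0, without the Ccl1 subcluster, it was 3.33 on 1 and 6 UMIs (0.29 to 8.86), and the 3.67 above also rests on 1 and 6 UMIs. Without cells with a Trav16 UMI the ratio in all CD8 cells was -0.41 for Penk, 0.44 for Nrgn and -0.091 for Rgs16, and 0.46 for Penk in exhausted-like cells. Classes from marker UMIs gave 1.28 for Nrgn in regulatory cells. Alternatives chosen after seeing the data were the removal of all Trav16 family cells (-0.59 for Penk, 0.46 for Nrgn, 0.14 for Rgs16 and 0.39 for Cd200 in all CD8 cells, and 0.10 for Penk and 0.63 for Nrgn in exhausted-like cells), the Il4 Il13 cluster joined to the exhausted-like cells (2.70 for Penk) or given as a class of its own, the regulatory-like cells alone (0.48 for Penk), and the removal of barcode sequences shared by the libraries, under which all 20 results stayed within their intervals. Beyond these constructions the causes were not tested. After thinning, the 10 highest exhausted-like cells held 40% and 42.4% of Nrgn, 26.5% and 27.9% of Rgs16 and, in the MWA plus TIGIT group, 56.5% of Cd200 UMIs, and the 10 highest regulatory cells 41.9% of Penk in that group and 13.1% and 18.1% of Rgs16. With no filter beyond 1 UMI, 3397 genes lay past 2-fold in all CD8, 3641 in exhausted-like, 3192 in CD4-like, 3510 in all regulatory and 3730 in NK-like cells and 4777 in the Il4 Il13 cluster, against 241, 327, 221, 321, 270 and 244 with at least 20 UMIs. Depth limits what can be said of Penk and Nrgn in CD4-like and Penk and Cd200 in NK-like cells, where too few UMIs were counted for a ratio.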

Other observations

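Among the exhausted-like cells of the MWA group, 60 of 284 (21.1%) held a UMI of a Trav16 family segment, a T cell receptor alpha family whose near-identical copies make the exact segment uncertain. Nrgn was counted in 11 of these 60 cells (18.3%) and in 108 of the other 224 (48.2%), Cd200 in 16.7% and 23.2%, and Rgs16 in 63.3% and 62.5%. Penk was in 0 of the 60, which allows a share of cells with a Penk UMI of up to 5%, and in 9 of the 224. In the same library 44 exhausted-like cells held a Trbv3 UMI, and Nrgn was counted in 27.3% of them against 44.6% of the rest. A further 15 exhausted-like cells held a Trav6 family UMI, and there the shares went the other way. Nrgn was counted in 53.3% of these against 41.3% of the rest, Rgs16 in 73.3% against 62.1% and Cd200 in 33.3% against 21.2%. The exhausted-like cells of the MWA plus TIGIT group had no family with at least 15 cells. These families were picked after the cells were seen, cells of 1 family may descend from 1 clone, and no test was made.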
